A study of Mus musculus with 16 samples.

Results

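The comparison described here is the genotype by zone difference of effects in germinal centre B cells: how far the difference between centrocytes and centroblasts in Ezh2 mutant mice departs from the same difference in control mice. All 16 of the 16 libraries enter it, 4 in each of 4 groups. The mutants were Ezh2(Y641F)fl/wt;Cγ1-cre mice, which carry 1 conditional Ezh2 allele with the Y641F change and 1 wild-type allele. The controls were Cγ1-cre mice, so both genotypes carry the recombinase, labelled +/-, which acts in B cells that transcribe the Cγ1 constant region. All mice were C57BL/6J, 3 months old, given litter number 1 in the labels, and had received sheep red blood cells 8 days before the spleen was taken. B220+ FAS+ CD38- cells were sorted as centroblasts (CXCR4+ CD86-) or centrocytes (CXCR4- CD86+). The labels do not say which centroblast and centrocyte libraries came from the same mouse. The design text calls the libraries biological replicates, and the p-values below measure the spread between these libraries.

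Germinal centres are divided into a dark zone, where centroblasts divide and mutate their immunoglobulin genes, and a light zone, where centrocytes test the new receptor on antigen and compete for help from T follicular helper cells. Helped centrocytes switch on MYC and NF-kB targets and return to the dark zone. EZH2 is the catalytic subunit of Polycomb repressive complex 2, which places methyl groups on lysine 27 of histone H3, and the Y641F change, recurrent in germinal centre lymphoma, raises the trimethylated form. A zone difference below is the log2 level in centrocytes minus that in centroblasts of 1 genotype. The difference of zone differences is the mutant value minus the control value, so that a negative value means a smaller difference for a gene that is higher in centrocytes and a larger one for a gene that is higher in centroblasts.

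The libraries held 35230563 to 44466911 counted reads, and 19838 to 26724 genes had a count in each. Of 49492 genes in the table, 32898 had a count and 15240 were tested. By Y-linked transcripts the libraries numbered 1 and 2 were male (251 to 391 CPM, read counts scaled to a common library size) and those numbered 3 and 4 female (0.128 to 1.49 CPM), so each sex has 2 libraries per group and sex cannot be told apart from the library number. Control centrocyte library 1 and mutant centrocyte libraries 3 and 4 stood apart from their groups, as given with the results they touch. Several list medians also moved when control centroblast library 4 was left out, as given with those lists. In RNA from sorted cells, fewer cells of a kind and less RNA per cell cannot be told apart.

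The zone differences of the 2 genotypes had the same direction in every gene called in both, and no gene was called for a difference between them. In controls 4230 genes were called between the zones, 2270 higher in centrocytes (14.9% of those tested) and 1960 higher in centroblasts (12.9%). In mutants 2438 were called, 1360 higher in centrocytes (8.92%) and 1078 higher in centroblasts (7.07%). The 2046 genes called in both genotypes all had the same direction. Of the 2184 called in controls only, 2136 had the same sign in mutants, and of the 392 called in mutants only, 374 had the same sign in controls. These genes are past the threshold in 1 genotype and not in the other, which does not make them different: in the test of the difference itself edgeR's quasi-likelihood test called 0 genes higher and 0 lower (0%), with a smallest adjusted p of 0.999. At an unadjusted p under 0.05 there were 429 genes (2.81%), 150 with a positive estimate (0.984%) and 279 with a negative one (1.83%). With no effect in any gene a share of 0.05 is expected on average, so 2.81% lies below it and is no excess. Genes named below at that p are descriptions. DESeq2 called 1 gene, Vav3, and had 460 genes at an unadjusted p under 0.05. The voom test of limma called 0, with 447.

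The precision bounds what could have been missed. Of 9875 tested genes with an average log2 CPM of at least 2, the SE of the difference of zone differences had a median of 0.20 on the log2 scale, and the 95% interval had a median of 0.42 to either side (10th to 90th percentile 0.30 to 0.69). For 9120 of these genes (92.4%) the whole interval lay within a 2-fold change in either direction, and over all 15240 tested genes this share was 64.5%. It was lower among genes with large zone differences, as given with them. Across these genes the zone differences of controls and mutants, which share no library, had a Pearson correlation of 0.914 and a Spearman correlation of 0.894. Genes are not independent replicates, and the value is a description. The SD of the zone difference across genes was 0.49 in controls and 0.42 in mutants, with a median SE of 0.14 in each.

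**Figure D1:**
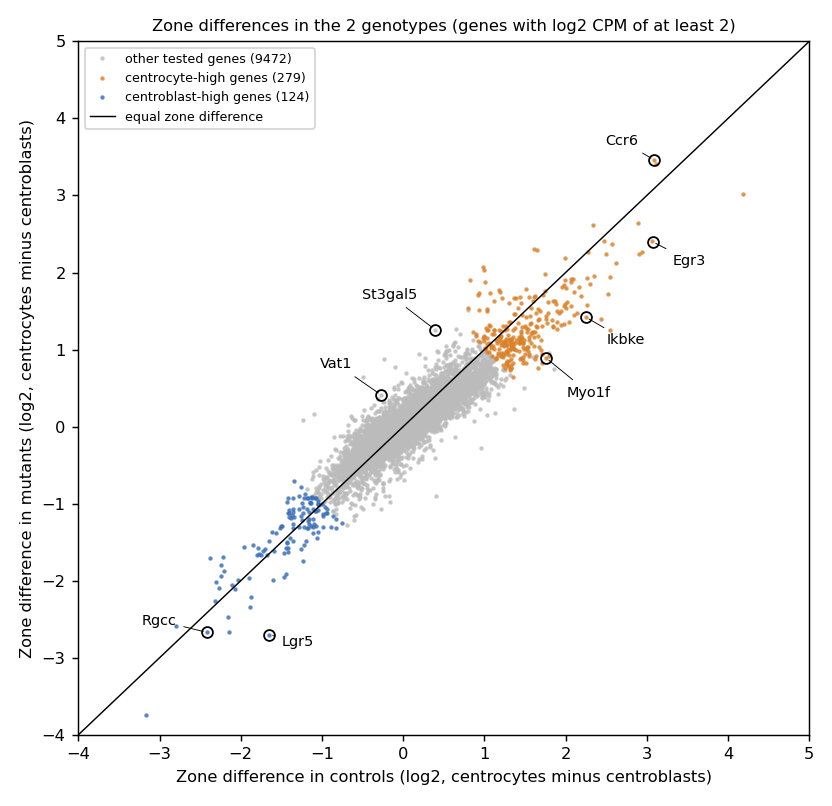
Zone difference (log2, centrocytes minus centroblasts) in controls on the x axis and in mutants on the y axis, 1 point per tested gene with an average log2 CPM of at least 2, coloured by class of the mean zone difference, with named genes circled and the line of equal differences. The points follow the line (Pearson correlation 0.914), and the orange points lie more often below it than above it.

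Genes were then sorted by their mean zone difference over both genotypes, at an adjusted p under 0.05 and at least 2-fold. This mean is independent of the difference of zone differences only where the spread is equal in all groups. The median SD within groups was 0.21 on the log2 scale in controls and 0.18 in mutants, so the sorting can by itself favour smaller differences in mutants, by an amount that was not tested. The mean was called for 3211 genes higher in centrocytes (21.1%) and 2739 higher in centroblasts (18.0%). With the 2-fold minimum this gave 921 centrocyte-high genes (6.04% of those tested) and 336 centroblast-high genes (2.20%). The median zone difference of the centrocyte-high genes was 1.46 in controls (2.74-fold) and 1.26 in mutants (2.40-fold). Their median difference of zone differences was -0.22 (quartiles -0.56 and 0.16), and 594 of 921 (64.5%) had a smaller zone difference in mutants. Over all 15240 genes 63.3% had a smaller one, so that share is near the background. The median over all genes was 0.0098. At an unadjusted p under 0.05 were 61 centrocyte-high genes with a smaller difference in mutants (6.62%) and 8 with a larger one, against 276 (1.81%) and 153 of all genes. The sorting and this p share 1 estimate of spread, so the higher share is not a test. None of the 921 had opposite signs in the 2 genotypes, which the sorting favours, and for 208 of them (22.6%) the interval lay within 2-fold.

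The centroblast-high genes had a slightly larger median difference in mutants. Their median zone difference was -1.36 in controls (2.56-fold) and -1.46 in mutants (2.75-fold). The median difference of zone differences was -0.06 (quartiles -0.36 and 0.22). Of the 336 genes 150 (44.6%) were smaller in mutants, beside 63.3% of all genes. At an unadjusted p under 0.05 were 12 smaller (3.57%) and 20 larger (5.95%), against 1.81% and 1% of all genes. Here too the sorting and this p share 1 estimate of spread, so the shares are not a test. For 119 (35.4%) the interval lay within 2-fold. The sign of this median depended on which genes were counted: it was 0.097 with no 2-fold minimum and 0.045 among genes with an average log2 CPM of at least 4.

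The levels per library show where these medians come from. Relative to each gene's mean over all 16 libraries, the centrocyte-high genes had a median log2 level of -0.857, -0.592, -0.554 and -0.723 in the control centroblast libraries 1 to 4 and of 0.46, 0.887, 0.826 and 0.876 in the control centrocyte libraries. In mutants they had -0.623, -0.722, -0.549 and -0.515 in centroblasts and 0.613, 0.551, 0.69 and 0.569 in centrocytes. The zones did not overlap in either genotype, which is no result in itself, because these genes were chosen for a zone difference in the same libraries. Control centrocyte library 1 was lower than the other control centrocytes, and without it the median zone difference of controls was 1.54, the median difference of zone differences -0.27 and the share with a smaller difference 68.6% (65.3% of all genes). In male libraries alone 59.9% of the centrocyte-high genes had a smaller difference in mutants, beside 51.5% of all genes, with a median of -0.16. In female libraries alone it was 67.7% beside 62.3%, with a median of -0.32.

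Whether a zone difference was smaller in mutants also depended on the scale. The gap in CPM between the zone means was smaller in mutants for 565 of the 921 centrocyte-high genes (61.3%) and for 228 of the 336 centroblast-high genes (67.9%), beside 64.1% of all genes. For 133 of the 921 centrocyte-high genes the log2 difference was smaller in mutants while the CPM gap was larger. This held for 27 of the 336 centroblast-high genes and for 791 of all 15240 genes. The reverse, a larger log2 difference with a smaller CPM gap, was not counted. A log2 difference is a ratio of the zones, and a CPM gap is a difference of abundance, and both are given below for many of the single genes.

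Of the 10 genes with the smallest p-values, 9 follow. None was called by edgeR, so their values are descriptions of the largest departures. Of these 10 genes, 5 had an average log2 CPM of at least 3, namely Myo1f, Lgr5, Vat1, St3gal5 and Ikbke.

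Vav3 (chr3:109340653-109685698, plus strand, mm10) encodes a guanine nucleotide exchange factor that acts below the B cell receptor. Its level was 1.3, 0.878, 0.965 and 0.903 CPM in control centroblasts and 2.97, 3.55, 3.36 and 3.04 CPM in control centrocytes. In mutants it was 0.708, 1.48, 1.74 and 1.35 CPM in centroblasts and 1.28, 1.05, 0.718 and 1.47 CPM in centrocytes. The zones were apart in controls and overlapped in mutants. The zone difference of Vav3 was 1.67 ± 0.27 (SE, n = 4 per group) in controls and -0.22 ± 0.27 in mutants. Their difference was -1.90 ± 0.38 (95% interval -2.70 to -1.09), with an adjusted p of 0.999 by edgeR and 0.0162 by DESeq2, and an adjusted p of 1 by voom. The CPM gap was 2.22 in controls and -0.19 in mutants. The estimate was -1.49 in male and -2.28 in female libraries. All levels of this gene were under 4 CPM.

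Myo1f (chr17:33555707-33607764, plus strand) encodes an unconventional class I myosin of leukocytes. It was at 6.32, 5.96, 7.47 and 7.71 CPM in control centroblasts and 22.1, 18.4, 27.3 and 25.4 CPM in control centrocytes. In mutants it was at 25.4, 28.7, 28.0 and 26.3 CPM in centroblasts and 48.1, 59.4, 42.3 and 51.3 CPM in centrocytes. The zones were apart in both genotypes. The zone difference was 1.76 ± 0.14 in controls and 0.89 ± 0.13 in mutants, a difference of -0.87 ± 0.19 (95% interval -1.27 to -0.47). On the CPM scale the gap was 16.4 in controls and 23.2 in mutants, so this difference was smaller as a ratio and larger as an amount.

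Lgr5 (chr10:115450311-115587780, minus strand) encodes a receptor of R-spondins, known as a stem cell marker in epithelia. It was at 31.6, 30.8, 26.4 and 24.7 CPM in control centroblasts and 6.98, 10.3, 9.84 and 9.16 CPM in control centrocytes. In mutants it was at 5.35, 5.86, 5.97 and 5.9 CPM in centroblasts and 0.81, 1.21, 0.919 and 0.605 CPM in centrocytes. The zones were apart in both genotypes. The zone difference was -1.65 ± 0.17 in controls and -2.70 ± 0.19 in mutants, which differed by -1.05 ± 0.24 (95% interval -1.57 to -0.54). The CPM gap was -19.3 in controls and -4.89 in mutants, larger as a ratio and smaller as an amount in mutants. The estimate was -0.62 in male and -1.56 in female libraries.

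Vat1 and St3gal5 had positive estimates. Vat1 (chr11:101458745-101466230, minus strand), a vesicle amine transport protein homologue, was at 12.2, 13.2, 13.2 and 13.7 CPM in control centroblasts and 11.9, 10.9, 10.2 and 10.2 CPM in control centrocytes. In mutants it was at 11, 10.5, 8.74 and 10.1 CPM in centroblasts and 13.1, 13.9, 11.4 and 15.2 CPM in centrocytes. The zones were apart in opposite directions in the 2 genotypes, and of 15240 genes this was the only one so separated (0.00656%). For comparison, 4226 genes had zones apart in controls (27.7%), 3361 in mutants (22.1%) and 2131 in both with the same direction (14.0%). The zone difference of Vat1 was -0.27 ± 0.12 in controls (adjusted p = 0.0994, edgeR) and 0.41 ± 0.12 in mutants (adjusted p = 0.0274, edgeR), which differed by 0.68 ± 0.17 (95% interval 0.32 to 1.04). The CPM gap was -2.26 and 3.3. The mutant call was lost on leaving out centroblast library 3 or 4 or centrocyte library 1, 2 or 4 of the mutants, with adjusted p-values up to 0.0907 by edgeR. With an offset for GC content and transcript length the mutant zone difference was 0.19.

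St3gal5 (chr6:72097592-72154571, plus strand), the sialyltransferase that makes the ganglioside GM3, was at 10.3, 12.2, 10.6 and 13.5 CPM in control centroblasts and 16.1, 14.5, 16.2 and 14.3 CPM in control centrocytes. In mutants it was at 3.94, 4.16, 3.55 and 5.01 CPM in centroblasts and 8.43, 11.6, 7.92 and 11.8 CPM in centrocytes. The zones were apart in both genotypes and the ratio was larger in mutants. The zone difference was 0.39 ± 0.15 in controls and 1.26 ± 0.16 in mutants, a difference of 0.87 ± 0.22 (95% interval 0.40 to 1.33). The CPM gap was 3.59 in controls and 5.77 in mutants.

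Ikbke (chr1:131254343-131279606, minus strand) encodes the kinase IKK epsilon of the NF-kB and interferon pathways. It was at 3.49, 4.67, 5.54 and 4.8 CPM in control centroblasts and 16.4, 22.6, 24.4 and 24.7 CPM in control centrocytes. In mutants it was at 10.6, 9.83, 9.82 and 10.7 CPM in centroblasts and 30.7, 28.5, 26.7 and 23.9 CPM in centrocytes. The ratio between zones was smaller in mutants and the amount was not: the zone difference was 2.25 ± 0.16 in controls and 1.42 ± 0.15 in mutants (difference -0.83 ± 0.21, 95% interval -1.27 to -0.38), while the CPM gap was 17.4 and 17.2.

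**Figure D2:**
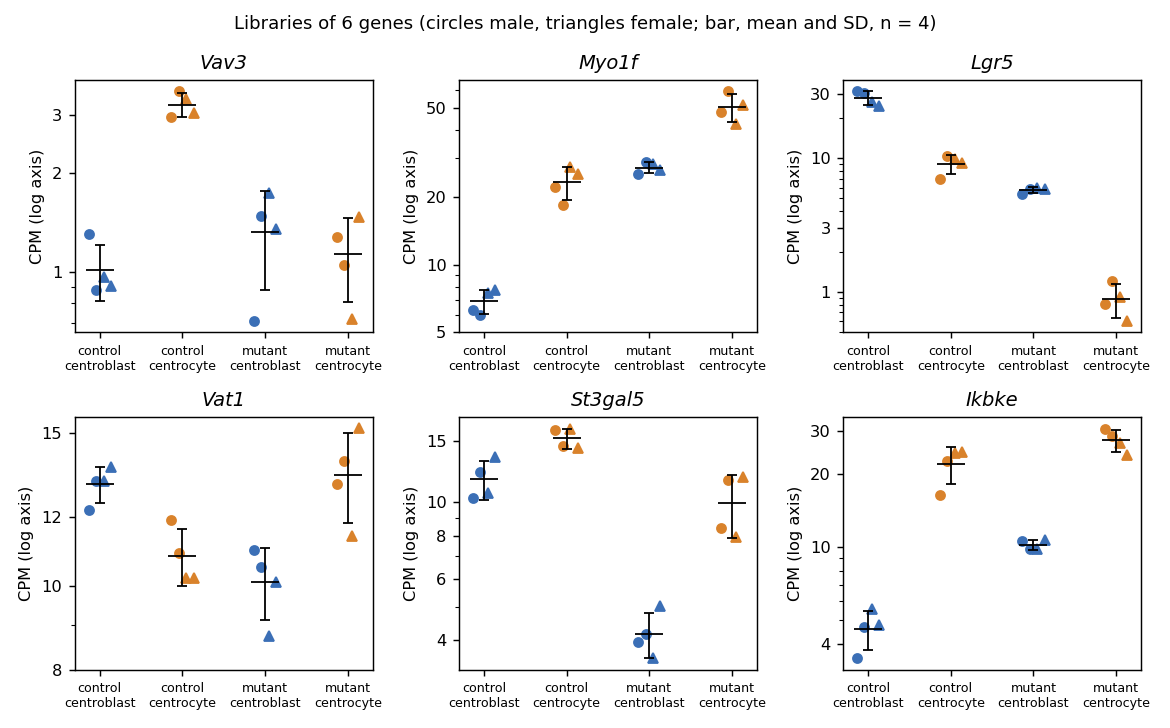
CPM on a log axis in the 16 libraries for 6 of the 10 genes with the smallest p-values, by group, with circles for males, triangles for females and a bar for the mean and SD (n = 4). Vav3 separates the zones in controls and not in mutants, Vat1 separates them in opposite directions, and Myo1f, Lgr5, St3gal5 and Ikbke separate them in the same direction in both.

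Of the other 4 genes, 3 are described, and they were low or hard to count. Igkv8-16, an immunoglobulin kappa variable segment, had a difference of 1.38 ± 0.32 and levels of 0.749 to 2.22 CPM. BC022960, a transcribed pseudogene, had -2.89 ± 0.71 and at most 0.915 CPM, with 1 mutant centrocyte library at 0. Gm9949, a long non-coding RNA, had 2.92 ± 0.74 and at most 0.444 CPM. Their 95% intervals were 0.71 to 2.05 for Igkv8-16, -4.38 to -1.40 for BC022960 and 1.36 to 4.48 for Gm9949.

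The 2 genes by which the sort told the zones apart separated the zones in both genotypes and differed little between them. Cxcr4, the receptor for CXCL12 that holds cells in the dark zone, was at 423 to 464 CPM in control centroblasts, 184 to 209 in control centrocytes, 379 to 429 in mutant centroblasts and 127 to 183 in mutant centrocytes. Its zone difference was -1.17 ± 0.10 in controls and -1.32 ± 0.10 in mutants, which differed by -0.15 ± 0.14 (95% interval -0.45 to 0.15). Cd86, a costimulatory ligand, had 0.95 ± 0.17 and 0.93 ± 0.17, which differed by -0.023 ± 0.25 (95% interval -0.54 to 0.49). Ezh2 itself had zone differences of -0.24 ± 0.12 and -0.23 ± 0.12, which differed by 0.0064 ± 0.17 (95% interval -0.35 to 0.36), and the counts do not separate the mutant allele from the wild-type one. The signs of the Cd86 and Ezh2 estimates changed with single libraries left out.

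Most textbook genes of the 2 zones were called in both genotypes. The members of these and all later lists were chosen with earlier results of these data known. Shares called among them are therefore descriptions and not a test. In the list of 30 light zone genes, 24 were called higher in centrocytes in controls and 25 in mutants, beside 14.9% and 8.92% of all genes. The median zone difference of the list was 1.24 and 1.06, and its median difference of zone differences was -0.049, with 19 of 30 estimates negative, beside 48.4% of all genes, and 0 called. In the list of dark zone genes 20 were tested, and 16 were called higher in centroblasts in controls and 15 in mutants, beside 12.9% and 7.07% of all genes. A single member, Basp1, a membrane-associated protein named after its values were seen, was called higher in centrocytes in mutants, with a zone difference of 0.20 in controls and 0.50 in mutants. The median zone difference was -0.82 and -0.92, and the median difference of zone differences -0.088, with 15 of 20 negative and 0 called. With 1 library left out the light zone median was -0.11 to -0.02 and the dark zone median -0.15 (without control centroblast library 1) to -0.0038 (without control centroblast library 4).

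Several strong zone genes had intervals that include 0. Of the genes named from here on, Cd83, Mcm6, Rpl4, Atp5b, Lck and Cd79b are the highest of their lists, and the others were added after their values were seen. Ccr6, the receptor for CCL20 and a marker of memory precursors, was at 3.33 to 6.1 CPM in control centroblasts, 32.1 to 47.5 in control centrocytes, 6.09 to 11.7 in mutant centroblasts and 75.3 to 118 in mutant centrocytes. Its zone difference was 3.09 ± 0.23 in controls and 3.46 ± 0.23 in mutants, a difference of 0.37 ± 0.31 (95% interval -0.28 to 1.02), and the CPM gap was 36.0 and 89.1. Cd83, which stabilises MHC class II at the surface, differed by 0.082 ± 0.15 and the amino acid oxidase gene Il4i1 by -0.25 ± 0.28. Nfkbid, an atypical inhibitor of NF-kB, differed by -0.39 ± 0.24. The CPM gap of Il4i1 was 258 in controls and 306 in mutants and that of Nfkbid 66.6 and 70.2, larger in mutants while the log2 estimates were negative. In the dark zone Rgcc, a regulator of the cell cycle, differed by -0.25 ± 0.20, and Reln, the extracellular matrix protein reelin, by -0.52 ± 0.50. Foxo1, a transcription factor that sustains the dark zone program, differed by -0.037 ± 0.20, but it was not among the strong zone genes. With 1 library left out its zone difference was -0.49 to -0.29 in controls and -0.56 to -0.34 in mutants. Its zone call was lost in 7 of these 16 fits in controls and in 8 in mutants.

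**Figure D3:**
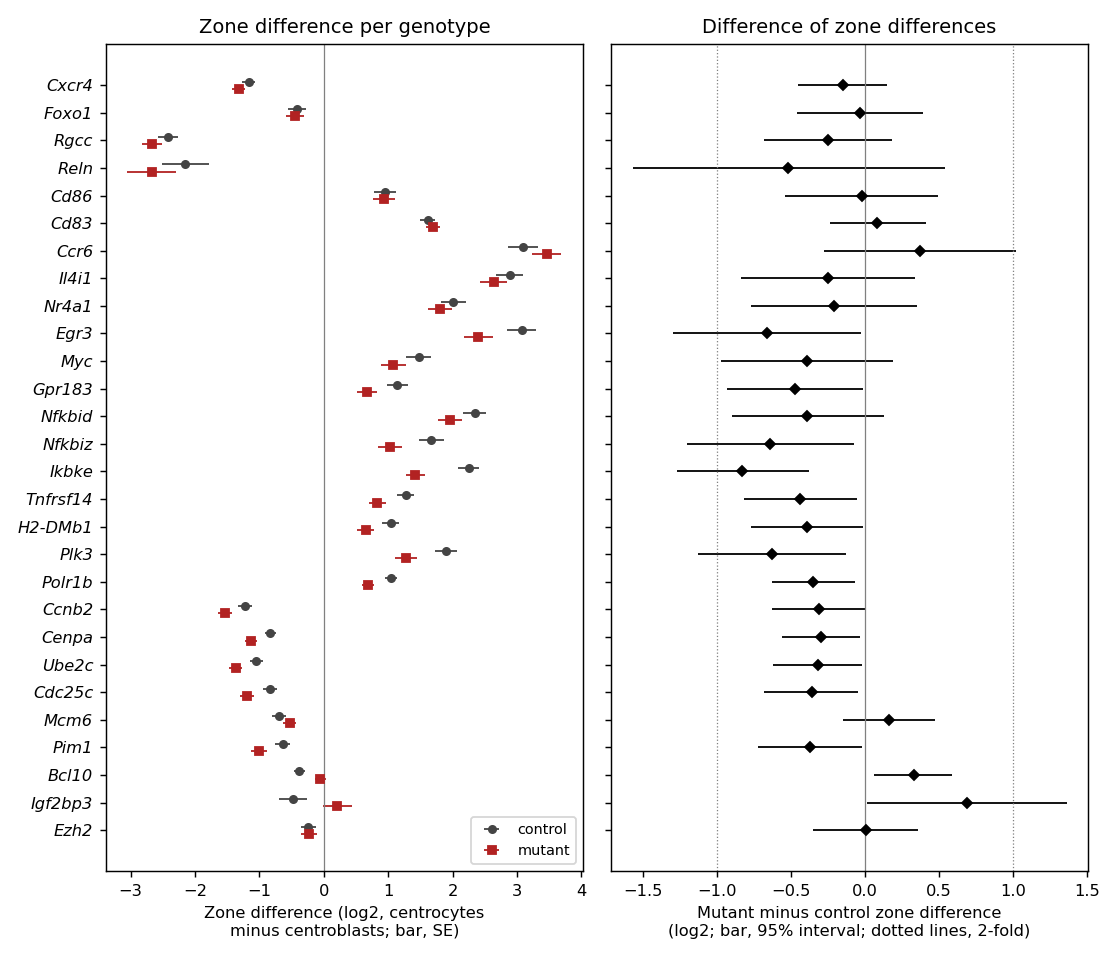
Left, zone difference (log2) with its SE in controls (circles) and mutants (squares) for 28 genes. Right, their difference with the 95% interval, where dotted lines mark a 2-fold change. Every gene but Igf2bp3 has the same direction in both genotypes.

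Lists of light zone signalling differed in the sign of their medians. B cell receptor signalling had a median of 0.11 with 16 of 25 estimates above 0. This median was -0.056 in female libraries and 0.038 without control centroblast library 4. The list of CD40 and NF-kB targets had 19 of 26 estimates below 0, a median zone difference of 1.04 in controls and 0.89 in mutants, and a median difference of zone differences of -0.15, beside 0.0098 over all genes, with 0 called. Nfkbiz, an inducible nuclear NF-kB cofactor, was its 1 member at an unadjusted p under 0.05, with 1.67 ± 0.19 in controls and 1.03 ± 0.19 in mutants (difference -0.64 ± 0.27, 95% interval -1.20 to -0.074) and a CPM gap of 24.5 and 12.9. Its levels were 8.31 to 12.3 CPM in control centroblasts, 27.2 to 41.7 in control centrocytes, 10.5 to 13.2 in mutant centroblasts and 16.4 to 33.2 in mutant centrocytes, apart by zone in both. The list of MYC and its targets had 19 of 27 below 0 and a median of -0.18, from 0.44 in controls to 0.26 in mutants. Of its 27 tested members 14 were called higher in centrocytes in controls and 5 in mutants, beside 14.9% and 8.92% of all genes, and 0 were called for the difference. Myc differed by -0.39 ± 0.28 and Polr1b, a subunit of RNA polymerase I, by -0.35 ± 0.13 (95% interval -0.63 to -0.067). Over the alternative settings and each library left out, the medians were -0.19 to -0.065 for CD40 and NF-kB targets and -0.28 to -0.05 for MYC and its targets. Without control centroblast library 1 they were -0.068 and -0.10, and without control centroblast library 2, mutant centroblast library 4 or mutant centrocyte library 3 that of CD40 and NF-kB targets was -0.092, -0.08 or -0.088. In a fit with a mean for each group and sex, MYC and its targets had -0.29 in males and -0.029 in females.

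Early response genes, which follow receptor signals within minutes, had a median of -0.014 with 12 of 23 below 0, and the sign changed between settings (-0.25 to 0.069). Single members spread widely. Egr3, which restrains receptor signalling, was at 2.0, 2.71, 2.77 and 3.64 CPM in control centroblasts, 19.7, 21.3, 23.0 and 29.4 in control centrocytes, 8.19, 5.59, 4.76 and 4.9 in mutant centroblasts and 36.4, 36.7, 22.2 and 28.7 in mutant centrocytes. It differed by -0.66 ± 0.30 (95% interval -1.30 to -0.03), from 3.07 to 2.40, while its CPM gap was 20.6 in controls and 25.1 in mutants. Nr4a1, a reporter of receptor signalling, differed by -0.21 ± 0.26.

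Of the 69 centrocyte-high genes at an unadjusted p under 0.05, 8 had a larger difference in mutants. Examples with a smaller difference at that p follow, from all genes higher in centrocytes, with or without the 2-fold minimum of that class. Tnfrsf14, the receptor HVEM, was at -0.44 ± 0.18 and Plk3, a stress-induced kinase, at -0.63 ± 0.24. Gpr183, the oxysterol receptor that positions B cells, was at -0.47 ± 0.22. The CPM gap was 12.1 in controls and 15.2 in mutants for Gpr183, 16.2 and 10.4 for Tnfrsf14, and 12.9 and 11.8 for Plk3. H2-DMb1, a subunit of the chaperone that loads MHC class II, was at -0.39 ± 0.18, with a CPM gap of 99.1 and 59.7. The list of MHC class II presentation as a whole had a median of 0.12, which was -0.12 in male and 0.34 in female libraries. Without control centroblast library 4 this median was 0.0061. Contact with T follicular helper cells had a median of 0.0032, with 11 of 22 on either side of 0.

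Genes of mitosis, a dark zone program, had estimates below 0 in 34 of 37 members, a larger difference in mutants. The median zone difference was -0.67 in controls and -0.74 in mutants, and the median difference of zone differences was -0.16, between -0.24 and -0.10 over the alternative settings and each library left out, with 0 called. Of these 37 genes 25 were called higher in centroblasts in controls and 29 in mutants, beside 12.9% and 7.07% of all genes. Without control centroblast library 4 the median was -0.10. At an unadjusted p under 0.05 were Ube2c, the ubiquitin-conjugating enzyme of the anaphase-promoting complex, at -0.32 ± 0.14, Cenpa, the centromeric histone H3 variant, at -0.30 ± 0.12, Ccnb2, a mitotic cyclin, at -0.31 ± 0.15, and Cdc25c, a phosphatase that activates CDK1, at -0.36 ± 0.15. Ccnb2 was at 234 to 286 CPM in control centroblasts, 94.7 to 136 in control centrocytes, 252 to 275 in mutant centroblasts and 87.6 to 93.9 in mutant centrocytes, apart by zone in both genotypes. Control centrocyte library 1 held its group's highest value, 136 CPM, and the list as a whole stood at 0.017 in it, beside -0.21 to -0.17 in the other control centrocytes.

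Genes of DNA replication went the other way, with 32 of 37 estimates above 0. Their median zone difference was -0.41 in controls and -0.26 in mutants, a median difference of zone differences of 0.11, with 0 called, and Mcm6, a subunit of the replicative helicase, differed by 0.16 ± 0.15. The median was -0.039 in male and 0.21 in female libraries, with 14 and 36 of 37 above 0. Without control centrocyte library 1 it was 0.19, and without mutant centrocyte library 2 it was 0.17. Pim1, a serine/threonine kinase and target of hypermutation, differed by -0.37 ± 0.17, and Igf2bp3, an RNA-binding protein, by 0.69 ± 0.32.

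**Figure D4:**
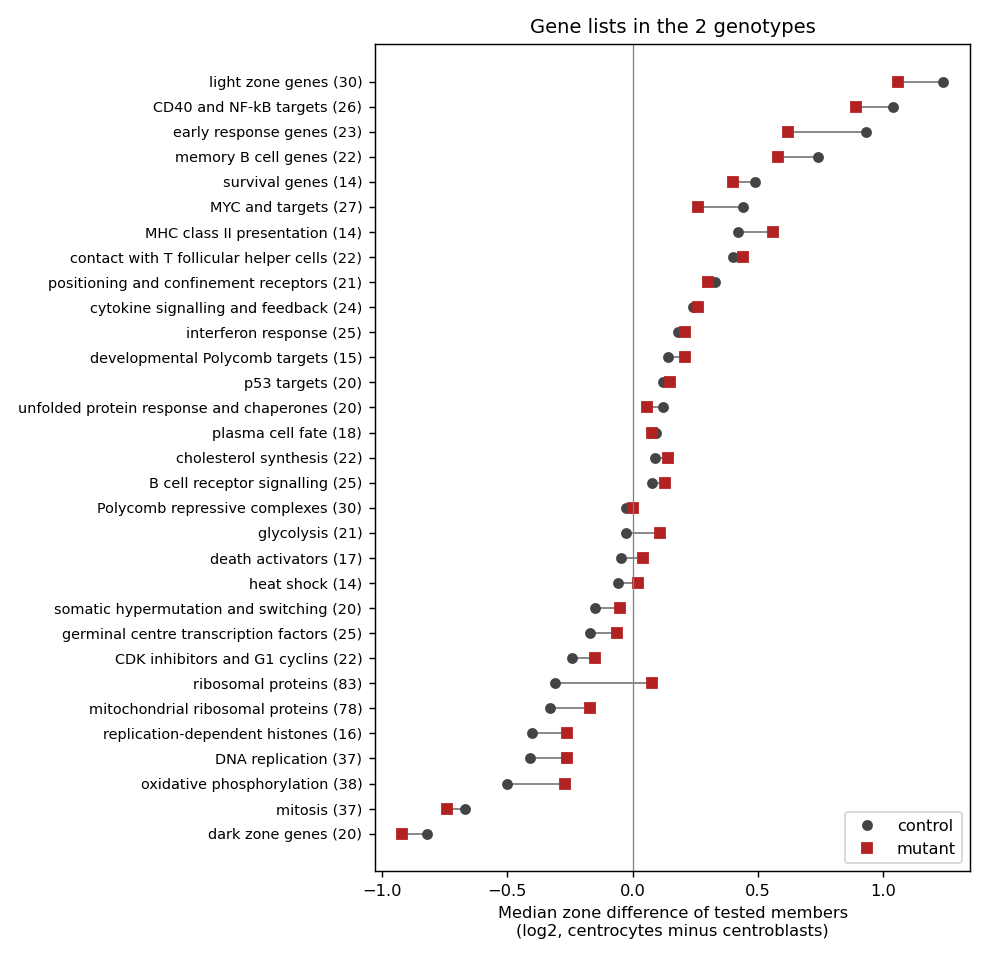
Median zone difference (log2, centrocytes minus centroblasts) of the tested members of 31 gene lists in controls (circles) and mutants (squares), with the number tested in brackets. The 6 uppermost lists lie nearer 0 in mutants, the mitosis and dark zone lists at the bottom lie farther from it, and no list held a member called for the difference.

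Among lists other than markers of other cells, the largest medians were those of ribosomal proteins and oxidative phosphorylation, and their values in males and females lay on opposite sides of 0. Cytoplasmic ribosomal proteins had a median zone difference of -0.31 in controls and 0.076 in mutants, and a median difference of zone differences of 0.34, with 64 of 83 above 0. In male libraries the median was -0.20 with 13 above 0, and in female libraries 0.73 with 70 above 0. Oxidative phosphorylation, the respiratory chain and ATP synthase, had a median of 0.22 with 37 of 38 above 0, which was -0.15 with 9 above 0 in males and 0.51 with 37 above 0 in females. Mitochondrial ribosomal proteins had 0.16 with 71 of 78 above 0, which was -0.18 with 11 above 0 in males and 0.45 with 72 above 0 in females. None of these members was called. Without control centroblast library 4 the medians were 0.19 for ribosomal proteins, 0.12 for oxidative phosphorylation and 0.08 for mitochondrial ribosomal proteins, and without mutant centrocyte library 3 they were 0.19, 0.12 and 0.062. In a fit with a mean for each group and sex, the difference between the sexes was called for 0 genes, with a smallest adjusted p of 0.612 and 1229 genes at an unadjusted p under 0.05 (8.06%). That share is above the 0.05 expected on average with no effect in any gene. Genes are not independent replicates, so the excess is a description and not a test.

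Single members show the spread behind these medians. Rpl4, a protein of the large ribosomal subunit, was at 2918 to 3198 CPM in control centroblasts and 2147 to 2933 in control centrocytes, where library 1 was the highest, 2787 to 4107 in mutant centroblasts and 2714 to 3658 in mutant centrocytes. It differed by 0.30 ± 0.19 (95% interval -0.10 to 0.70), and Atp5b, the beta subunit of ATP synthase, by 0.096 ± 0.16 (95% interval -0.24 to 0.43). The ribosomal members at an unadjusted p under 0.05 had the opposite sign: Rpl9 was at -0.49 ± 0.23 and Rpl10a at -0.53 ± 0.24. Rpl10a was far lower than Rpl4, at 25.9 CPM in control centrocyte library 1 and 38.4 to 39.0 CPM in the other control centrocytes. Counts of genes with near-identical copies, such as those of ribosomal proteins, are uncertain here.

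**Figure D5:**
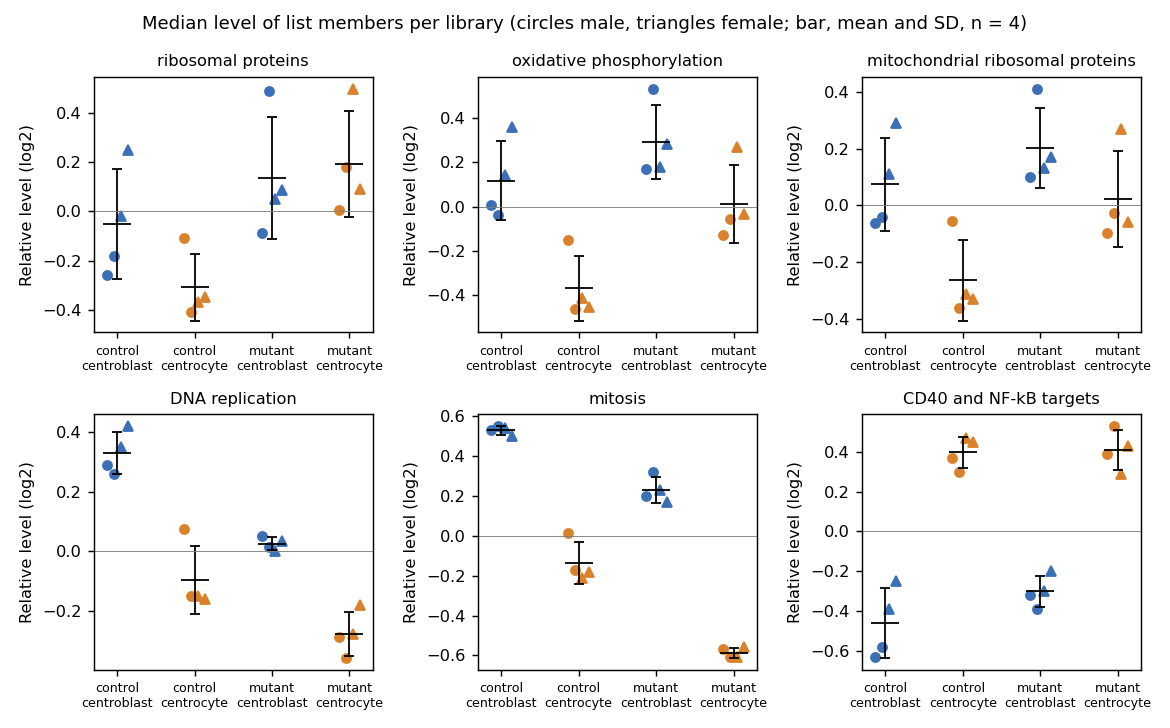
Median log2 level of the members of 6 lists in each library, relative to each gene's mean over all 16 libraries, by group, with circles for males, triangles for females and a bar for the mean and SD (n = 4). Mitosis, DNA replication and CD40 and NF-kB targets separate the zones in both genotypes, while the other 3 lists overlap between the zones of mutants. Ribosomal proteins and mitochondrial ribosomal proteins overlap between the zones of controls as well.

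Lists of fate and survival had small medians. Death activators had 15 of 17 estimates above 0 and a median of 0.15, which was 0.08 to 0.28 over the alternative settings and 0.078 in males and 0.31 in females in the fit with a mean for each group and sex, with 0 called and none at an unadjusted p under 0.05. Survival genes had a median of -0.09 with 8 of 14 below 0, plasma cell fate -0.0097 with 9 of 18 below 0, and memory B cell genes -0.023 with 13 of 22 below 0, each with a sign that changed between settings. Bcl10, an adaptor from antigen receptors to NF-kB, had -0.38 ± 0.088 in controls and -0.055 ± 0.088 in mutants, a difference of 0.33 ± 0.12 (95% interval 0.063 to 0.59). Genes of the Polycomb repressive complexes had a median of -0.014 with 17 of 30 below 0. Developmental Polycomb targets, of which 15 of 36 were tested, had 0.056 with 7 below 0, and 0 members of either list were called. The sign of both Polycomb medians changed between settings.

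Markers of other cells moved with the comparison in some libraries. The 20 macrophage markers summed to 394 and 400.3 CPM in mutant centrocyte libraries 3 and 4, beside 100.2 and 59.9 CPM in mutant centrocyte libraries 1 and 2 and 32.9 to 153 CPM in all other libraries, with 0 of the markers at 0 in that group. Their median difference of zone differences was 0.72, with 19 of 19 tested members above 0 and 0 called, and it was -1.02 without those 2 libraries. The summed T cell markers were 325 CPM in control centrocyte library 1 and 227 to 234 CPM in the other 3. In the other groups they were 114 to 180 in control centroblasts, 181 to 213 in mutant centroblasts and 309 to 348 in mutant centrocytes. Most of each sum was 1 gene, Lck, at 309.6 CPM in control centrocyte library 1 and 209 to 219 CPM in the other 3. Lck was at 108 to 169.7 CPM in control centroblasts, 167 to 197 in mutant centroblasts and 289.8 to 326 in mutant centrocytes. These sums therefore mostly follow Lck and not the other markers. Without mutant centrocyte libraries 3 and 4, the median of the centrocyte-high genes was -0.25, that of mitosis -0.18, of oxidative phosphorylation 0.12 and of ribosomal proteins 0.18. These libraries are the female ones of their group, so leaving them out also changes its sex, and the 2 changes cannot be told apart. The part of these other cells in the results was otherwise not tested.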

How the data were processed

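The deposited values are the authors' read counts per gene symbol, as whole numbers without normalization. The submitters' processing notes name Trim Galore, cutadapt, STAR 2.5.3a, Subread with featureCounts 1.4.5-p1, and the mm10 build. Strand, annotation and counting options are not given in the sources used here, so counts of overlapping, antisense and near-identical genes (pseudogenes of ribosomal proteins, immunoglobulin segments) are uncertain.

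Counts were fitted in R 4.3.3 with edgeR 4.0.16 (quasi-likelihood test, TMM factors, filterByExpr by group, 1 mean per group, 16 libraries, 12 residual degrees of freedom). The contrast was the zone difference of mutants minus that of controls. Tests were 2-sided, and p-values were adjusted by Benjamini-Hochberg across every tested gene, at a threshold of 0.05. CPM are relative to the TMM-scaled library size. Coordinates, lengths and GC content came from the GENCODE M21 annotation of mm10, by symbol, for 14774 of the 15240 tested genes. Spike-in rows, 92 in number and holding 3 reads in all, were left out. Sex was read from Y-linked transcripts with a boundary of 100 CPM, set after the libraries' values were seen. DESeq2 1.42.0, voom of limma 3.58.1 and the other settings are compared in the closing section, and the procedure was tested on simulated data.

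With fewer than 10 genes called, the naming rule took the 10 genes of smallest p, the uncalled member of highest level in each of 40 gene lists, the 2 highest markers of each cell type, the sort genes and Ezh2, of which the text names a part. Genes described as added were chosen after their values were seen. The members and lists were chosen with earlier results of these data known. Naive B cells, which the design text mentions, are not analysed here. Of the genes the rule named, 2 are not reported here.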

Additional observations from a re-analysis of the deposited data

Results flagged for a closer look

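In 216 groups of 4 libraries, 14 libraries stood apart from the other 3 of their group by Dixon's test at the 95% level (6.48%). The groups covered the genes named apart from Basp1 and Lck, the summed marker lists and the zone gene classes. Chance flags about 1 in 20 such groups. Control libraries held 10 of the 14 and mutant libraries 4. Control centrocyte library 1 was flagged for the level of the centrocyte-high genes, 0.46 against 0.826 to 0.887 in the other 3, for Ube2c at 69.5 CPM against 57.2 to 59.3, for Rpl10a at 25.9 CPM against 38.4 to 39.0, for H2-DMb1 at 176 CPM against 196 to 200, for Cd79b, a subunit of the B cell receptor, at 1956 CPM against 1502 to 1537, and for the summed T cell markers at 325 CPM against 227 to 234. The summed T cell markers were mostly Lck. Control centrocyte library 2 was apart in Polr1b at 51.0 CPM against 52.2 to 52.4, a narrow range, and in the summed erythroid and platelet markers at 21.5 CPM against 13.5 to 14.4. Control centrocyte library 3 was apart in Gm9949 at 0.258 CPM against 0.0535 to 0.0729. Nfkbiz was at 8.31 CPM in control centroblast library 4 against 12.1 to 12.3, and at 10.5 CPM in mutant centroblast library 3 against 12.8 to 13.2. H2-DMb1 was at 88.0 CPM in mutant centroblast library 3 against 109 to 112. Mutant centrocyte library 2 was apart in Il4i1 at 447 CPM against 327 to 345 and in Bcl10 at 97.0 CPM against 93.5 to 93.8.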

How the results depend on the processing

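Across 14 other settings and each of the 16 libraries left out, edgeR and voom called 0 genes for the difference of zone differences, and DESeq2 called 1 lower and 0 higher. Zone calls were 3093 to 4401 in controls and 1818 to 2910 in mutants with a library left out. In controls they were 2007 in males alone, with fewer libraries, and 6385 with the offset for GC content and transcript length together with the replicate block. In mutants they were 1353 in males and 1060 in females alone, 3984 with that offset and 4608 with the offset and the block. The median of centrocyte-high genes kept its sign in all of these (-0.27 to -0.18 with a library left out, and -0.14 with no 2-fold minimum). That of centroblast-high genes was 0.097 with no 2-fold minimum and 0.045 at an average log2 CPM of at least 4, an alternative chosen after the data were seen, and -0.10 to 0.0031 with a library left out.

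The labels do not pair same-numbered centroblast and centrocyte libraries, which share a number and, by Y-linked transcripts, a sex. The correlation of their deviations was -0.006 to 0.452, not over 0.1 in every pair, and for 2 of 8 pairs each library was the other's closest match. With the number as a replicate block within genotype 0 genes were called for the difference, 4506 between zones in controls and 2759 in mutants.

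List medians that moved by more than the spread between replicates were mostly those of 1 sex. In males alone they were -0.039 for DNA replication, -0.24 for mitosis, -0.12 for MHC class II presentation, -0.056 for contact with T follicular helper cells, 0.022 for survival genes, 0.08 for Polycomb repressive complexes, -0.10 for glycolysis, -0.15 for oxidative phosphorylation, -0.73 for macrophage markers, -0.49 for T cell markers, -0.20 for ribosomal proteins and -0.18 for mitochondrial ribosomal proteins. In females alone they were -0.05 for MYC and targets, 0.21 for DNA replication, -0.023 for CDK inhibitors and G1 cyclins, 0.34 for MHC class II presentation, -0.056 for B cell receptor signalling, -0.11 for germinal centre transcription factors, 0.28 for death activators, -0.28 for survival genes, -0.043 for p53 targets, -0.22 for Polycomb repressive complexes, 0.51 for oxidative phosphorylation, -0.15 for cytokine signalling, 0.73 for ribosomal proteins and 0.45 for mitochondrial ribosomal proteins. By voom p53 targets had 0.035. Without mutant centrocyte libraries 3 and 4, the female ones of that group, the medians were -0.60 for interferon response, -1.02 for macrophage, -0.78 for dendritic cell and -1.41 for neutrophil and monocyte markers.

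Some single-gene estimates changed sign. In males alone the zone difference in mutants was 0.087 for Vav3, that in controls -0.39 for BC022960, and the difference of zone differences was -0.035 for Ezh2, 0.31 for Foxo1, -0.10 for Rpl4, and -0.029 for Atp5b and Cd79b. With no filter it was -0.00018 for Ezh2, and without mutant centrocyte libraries 3 and 4 it was 0.019 for Foxo1 and 0.018 for Nr4a1. The zone difference of Rpl4 in mutants was 0.18 in females alone, 0.027 with the offset and 0.035 with the offset and the block. The cause of these changes was not tested.

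With 1 library left out, medians ranged from -0.15 to -0.0038 for dark zone genes, -0.25 to 0.064 for early response genes, 0.091 to 0.19 for DNA replication, -0.20 to 0.057 for plasma cell fate, 0.023 to 0.12 for p53 targets and -0.40 to 0.24 for dendritic cell markers, from 0.19 to 0.44 for ribosomal proteins, 0.12 to 0.30 for oxidative phosphorylation and 0.062 to 0.24 for mitochondrial ribosomal proteins, and the difference of zone differences from -0.18 to 0.10 for Cd86, -0.071 to 0.098 for Ezh2 and -0.17 to 0.077 for Foxo1. Zone differences ranged from -0.17 to 0.28 for BC022960 in controls and from -0.13 to 0.078 for Rpl4 in mutants. Without a filter, with the offset, in either sex alone and without mutant centrocyte libraries 3 and 4 the Vat1 call in mutants was also lost. Depth limits BC022960 and Gm9949, both under 1 CPM.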
